A study of Mus musculus with 12 samples.

Results

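The 8 genes described here, Lin28a, Lin28b, Trim71, Hmga1, Hmga2, Igf2bp1, Igf2bp2 and Igf2bp3, belong to the LIN28 and let-7 timing axis. They were taken by name from the 24736 genes quantified, with earlier results of these data known. RNA was sequenced from 12 cultures of XY mouse embryonic stem cells differentiated for 72 h, in 4 groups with 3 biological replicates each. All cultures were grown with bFGF and with LGK974, which blocks the release of WNT ligands. The wild type EpiLC group (epiblast-like cells) received nothing further, while the wild type CEpiLC group (caudal epiblast-like cells) received CHIR99021, a GSK3 inhibitor that activates WNT signalling, between day 2 and day 3. The SOX2-OFF and SOX2-ON groups also received CHIR99021 and carried the genotype Sox2-/- together with a doxycycline-inducible Sox2 transgene in the Hprt locus. By the study's methods the wild type was the parental HM1 TetON line, which expresses rtTA from Rosa26, so all 4 groups shared rtTA. The edited line of SOX2-OFF and SOX2-ON, called the TetON line below, was kept in doxycycline as stem cells. Doxycycline was then withdrawn from SOX2-OFF or maintained in SOX2-ON during differentiation.

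The TetON cells descend from clones picked after gene editing of the wild type parent, and all stem cells had been grown on fibroblast feeders. No TetON culture without CHIR99021 was analysed, so the CHIR99021 response was measured in wild type cells alone, and line and SOX2 state cannot be told apart in a comparison of a TetON group with a wild type group. In SOX2-ON against SOX2-OFF the line was shared and doxycycline differed along with SOX2.

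LIN28A and LIN28B are RNA-binding proteins of early embryonic cells that bind the precursors of let-7 microRNAs and block their maturation. Mature let-7 in turn represses messenger RNAs that hold matches to its seed, among them those of LIN28 itself, TRIM71, the HMGA chromatin proteins and the IGF2BP RNA-binding proteins. The balance sets developmental timing: LIN28 is high and let-7 low in pluripotent and early embryonic cells, and the relation turns over as tissues mature.

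The let-7 microRNAs share the seed through which these messengers are recognised. Of the 11 mature let-7 and miR-98 sequences in RefSeq (GRCm38.p6), 10 carried the seed GAGGUAG and 1, let-7j, differed in its last seed base. A selection of 4 is shown 5′ to 3′, with bases 2 to 8 in capitals, to mark the shared seed and the exception.
let-7a-5p, chr13:48538239-48538260, minus strand: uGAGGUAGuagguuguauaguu
let-7d-5p, chr13:48536078-48536099, minus strand: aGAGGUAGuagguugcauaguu
miR-98-5p, chrX:151913229-151913250, plus strand: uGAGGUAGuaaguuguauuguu
let-7j, chr3:140028281-140028304, plus strand: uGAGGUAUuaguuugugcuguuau

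LIN28 proteins recognise the letters GGAG in the loop of many let-7 precursors. Among 11 hairpins of the family for which RefSeq lists both arms, 8 held GGAG between the arms, and the letters were absent there in Mirlet7b, Mirlet7c-2 and Mir98. The hairpin of let-7g is shown as an example, with GGAG in capitals.
Mirlet7g, chr9:106178840-106178927, plus strand: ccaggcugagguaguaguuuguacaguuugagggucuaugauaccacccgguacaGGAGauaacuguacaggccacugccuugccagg

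Each of the 8 genes held at least 1 match to the let-7 seed, CTACCTC, on the sense strand of its longest 3′ UTR in GENCODE M21 (GRCm38). Among 21020 genes with a 3′ UTR, 9.02% held the match, and 12 genes held 4 or more. Lin28b, Trim71, Hmga2 and Igf2bp1 were among those 12, each with 4 matches. Lin28a held 2 matches, and Hmga1, Igf2bp2 and Igf2bp3 held 1 each. The related form TACCTCA without a C before it is not in these counts. Hmga2 held 3 of that form, Trim71 2, Lin28b, Igf2bp1 and Igf2bp2 1 each, and Lin28a, Hmga1 and Igf2bp3 0. The 8 genes are known let-7 targets, so the matches describe them and test nothing. Long UTRs hold the match more often, and among genes with 3′ UTRs from 0.5 to 2 times as long the share ran from 9.13% for the length of Hmga1 (1183 bases) to 26.3% for that of Igf2bp1 (6337 bases).

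The match nearest to the stop codon is shown for each gene as a stretch of 30 bases, with the match and, where present, the A that follows it in capitals.
Lin28a, chr4:134005189-134005218, minus strand: ttggagtgcacagcctgttgaaCTACCTCA
Lin28b, chr10:45381022-45381051, minus strand: tcccttcacccgggcgggaagtCTACCTCA
Trim71, chr9:114512472-114512501, minus strand: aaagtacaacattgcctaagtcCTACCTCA
Hmga1, chr17:27563269-27563298, plus strand: ccatcttctcctctgttcacaaaCTACCTC
Hmga2, chr10:120364224-120364253, minus strand: agggggcgccgacattcaatttCTACCTCA
Igf2bp1, chr11:95961778-95961807, minus strand: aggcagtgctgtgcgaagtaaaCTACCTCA
Igf2bp2, chr16:22059473-22059502, minus strand: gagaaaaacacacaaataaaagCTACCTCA
Igf2bp3, chr6:49086787-49086816, minus strand: ttaaacgtgcatttttactcaaCTACCTCA
The matches of Lin28b, Trim71 and Hmga2 shown here lay within 200 bases of the start of the UTR, and the 4 matches of Trim71 were all followed by A. The 2 distal matches of Trim71, near chr9:114509021-114509076, lie beyond the end of the RefSeq gene, which spans chr9:114511268-114564369.

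**Figure D1:**
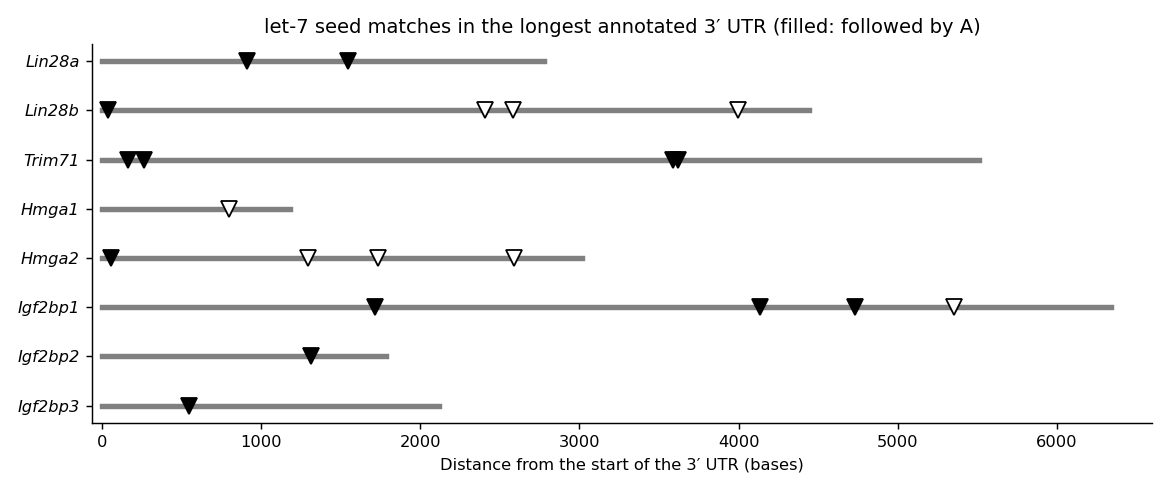
Positions of the let-7 seed match in the longest annotated 3′ UTR of each gene. The x axis gives the distance from the start of the UTR in bases, grey lines the UTR, filled triangles a match followed by A and open triangles a match without it. Lin28b, Trim71, Hmga2 and Igf2bp1 carry 4 triangles each, and in Lin28b, Trim71 and Hmga2 the first of them sits close to the start.

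Mature let-7 was not measured, because the libraries were made from polyadenylated RNA. Of 18 table entries for let-7 and miR-125 genes and their host transcripts, 16 were at 0 in all 12 libraries. The only tested entries were the hosts Huwe1 and Wdr82, whose reads come from the long coding transcript.

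Library totals ran from 10408252 to 27337740 expected counts, RSEM's estimates of reads per gene, and levels are given as TPM (RSEM's share of transcripts, scaled to one fixed total per library and corrected for length). Sox2 ran from 119 to 171 TPM in EpiLC and 7.78 to 13.7 in CEpiLC. In the TetON line it ran from 12.3 to 21.2 in SOX2-OFF and, with doxycycline, from 173 to 215 in SOX2-ON. It was called higher in SOX2-OFF than in CEpiLC (log2 fold change 0.65, edgeR, adjusted p = 0.0367), although the levels overlapped. RNA of the edited Sox2 copies and of the transgene is counted together. The caudal genes T, Cdx1, Cdx2 and Nkx1-2 were called higher in CEpiLC than in EpiLC, and 4 of 5 epiblast genes (Otx2, Fgf5, Pou3f1, Dnmt3b) were lower. Against CEpiLC, all 4 caudal genes were called lower in SOX2-ON, and Cdx2 and Nkx1-2 in SOX2-OFF, beside 28.6% and 24.9% of all genes. The naive pluripotency genes Nr5a2, Esrrb, Klf2, Dppa3 and Tfcp2l1 summed to 185 to 222 TPM in SOX2-ON and 9.77 to 23.3 TPM in SOX2-OFF. All 5 were called higher in SOX2-ON than in SOX2-OFF, beside 14.8% of all genes. Genes of chromosome 6 were higher in the TetON line by a median of 0.58 on the log2 scale over the wild type, those of chromosome 8 by 0.61, and those of chromosome 11 lower, at -0.52. For the other chromosomes this median lay between -0.02 and 0.06. Igf2bp3 lies on chromosome 6 and Igf2bp1 on chromosome 11, whereas the remaining 6 genes lie on chromosomes without such a shift.

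Markers of extraembryonic endoderm also differed between the TetON groups and the wild type groups. Of 10 listed genes 8 were tested, and 7 of these were called higher in SOX2-OFF than in CEpiLC and 7 in SOX2-ON than in CEpiLC. Between SOX2-ON and SOX2-OFF, 1 was called higher (Gata6, 0.98) and 3 lower (Foxa2 -1.28, Amn -1.09, Cubn -0.95), where 28.8% of all genes were called. With CHIR99021 in the wild type only Foxa2 was called, higher by 5.24. Their summed level was 1.81 to 2.87 TPM in EpiLC and 4.29 to 16.3 in CEpiLC, and in the TetON line 185 to 205 in SOX2-OFF against 88.9 to 230.2 in SOX2-ON. Afp, a defining marker, had no library over 3 counts, and Apoa1 and Ttr averaged 0.36 and 1.83 TPM in SOX2-OFF. Cubn, Gata4 and Gata6 were clearly present in SOX2-OFF, at 83.7, 26.7 and 21.1 TPM on average. The 8 markers of fibroblast feeders, all tested, summed to between 40.5 and 57.1 TPM in EpiLC, 55.95 and 85.6 TPM in CEpiLC, 21.9 and 44.1 TPM in SOX2-OFF, and 29.3 and 51.8 TPM in SOX2-ON. Against CEpiLC, Thy1 was called lower in both TetON groups (log2 fold change -2.33 in SOX2-OFF and -2.22 in SOX2-ON), Dcn (1.21 and 1.32) and Fbln2 (0.88 and 1.75) were called higher in both, and Lum, with 0 to 6 counts a library in CEpiLC and 11 to 20 in SOX2-ON, was called higher in SOX2-ON. In bulk RNA a smaller number of expressing cells and less RNA per cell cannot be told apart. Whether the RNA of these markers came from separate cells was not tested, nor was the part of such cells in the results.

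All 8 genes were expressed well enough to be tested, and all were in the upper range of the 18755 genes with any reads. Hmga1 ranked 134 by mean TPM over the 12 libraries, Lin28a 338, Igf2bp1 799 and Igf2bp3 1130, and the lowest, Trim71, 3819. A change was called where edgeR's quasi-likelihood test over 14196 genes gave an adjusted p no higher than 0.05.

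Between CEpiLC and EpiLC 5 of the 8 genes were called, where 42.2% of all genes tested were called. Of the 5, 2 were higher and 3 lower in CEpiLC, beside 22.1% and 20.1% of all genes. In SOX2-OFF against CEpiLC 5 were called (48.5% of all genes), 2 of them higher (23.6% of all genes) and 3 lower (24.9%). In SOX2-ON against CEpiLC 7 were called (56.5% of all genes), 3 of them higher (27.9%) and 4 lower (28.6%). Between the TetON groups 4 were called (28.8% of all genes), 1 higher in SOX2-ON (14.8%) and 3 lower (14.1%). Against EpiLC all 8 were called in SOX2-OFF (62.1% of all genes), 2 higher (31.5%) and 6 lower (30.6%), and 7 in SOX2-ON (59.8% of all genes), 1 higher (30.7%) and 6 lower (29.1%). The counts were not tested against those of all genes, and the description rests on the single genes. The count fell from 7 to 4 for SOX2-ON against CEpiLC without SOX2-ON replicate 2, and from 4 to 2 for SOX2-ON against SOX2-OFF without SOX2-OFF replicate 3. The median log2 fold change of the 8 genes was -0.12 for CEpiLC against EpiLC, -0.18 for SOX2-OFF against CEpiLC, -0.32 for SOX2-ON against CEpiLC and -0.09 for SOX2-ON against SOX2-OFF, beside 0.01, -0.01, -0.01 and -0.01 over all genes tested. Against EpiLC it was -0.46 in SOX2-OFF and -0.47 in SOX2-ON, beside 0.01 over all genes in each. Comparisons that name the same group share its libraries.

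**Figure D2:**
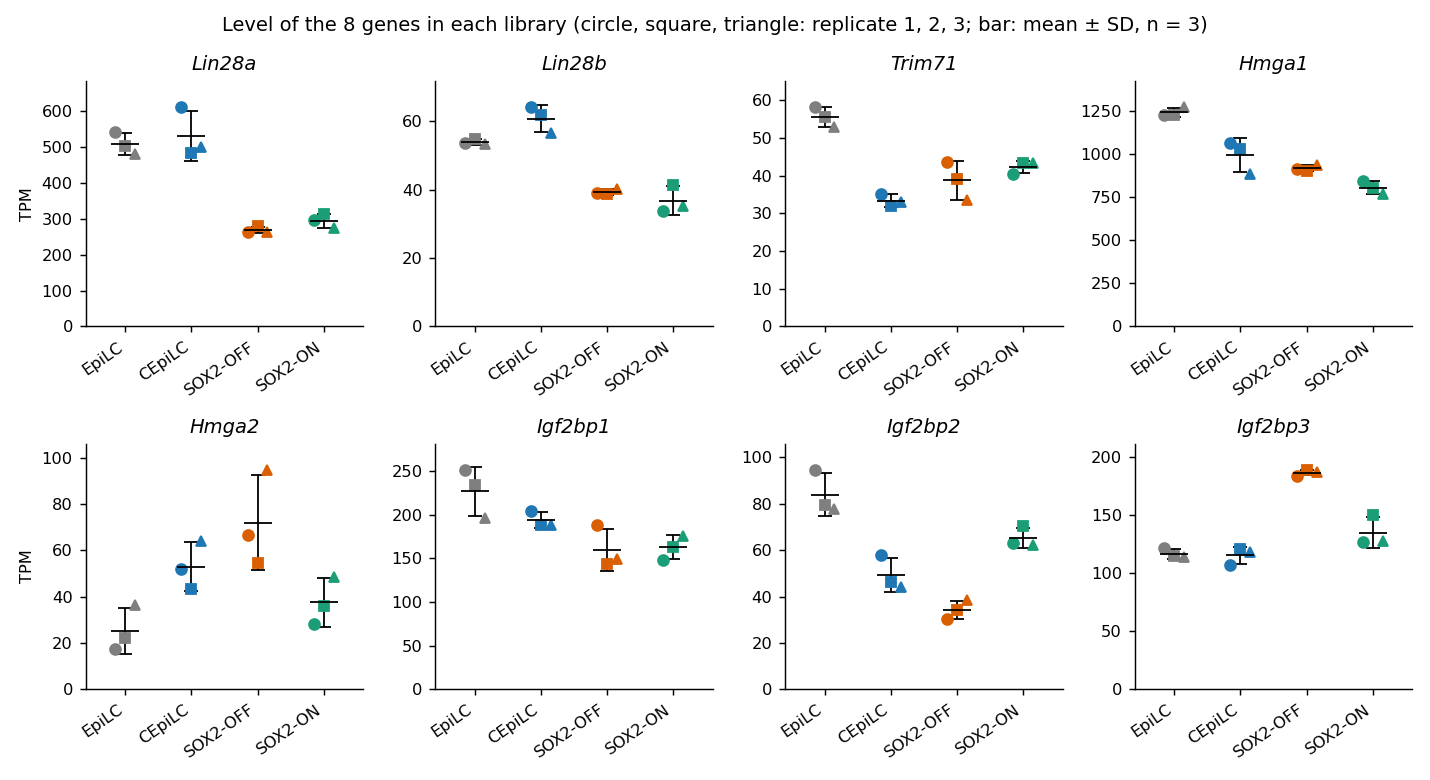
Level of each gene in TPM (y axis, from 0) in the 12 libraries by group (x axis). Circles, squares and triangles are replicates 1, 2 and 3, and horizontal bars with whiskers give the mean ± SD (n = 3). Lin28a and Lin28b sit lower in both TetON groups than in both wild type groups, Hmga2 is highest in replicate 3 of every group, and from SOX2-OFF to SOX2-ON Igf2bp2 is higher and Igf2bp3 lower.

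Lin28a, the main LIN28 gene of pluripotent cells, was present at similar levels with and without CHIR99021 in the wild type and at a much lower level in both TetON groups. It read 541, 503 and 482 TPM in the EpiLC replicates and 611, 483 and 500.15 TPM in the CEpiLC replicates. In SOX2-OFF it read 263, 279 and 264 TPM, and in SOX2-ON 296, 313 and 274 TPM. The 6 wild type libraries all lay above the 6 TetON libraries, with no overlap, whereas EpiLC and CEpiLC overlapped and so did SOX2-OFF and SOX2-ON.

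Against CEpiLC, Lin28a fell by 0.97 ± 0.09 on the log2 scale (SE, n = 3 per group) in SOX2-OFF, to 0.51-fold (edgeR, adjusted p = 1.96e-06). In SOX2-ON it fell by 0.89 ± 0.09, to 0.54-fold (edgeR, adjusted p = 2.57e-06). The difference between SOX2-ON and SOX2-OFF was 0.08, with a 95% interval from -0.11 to 0.27 (edgeR, adjusted p = 0.544), and that between CEpiLC and EpiLC was 0.07, from -0.12 to 0.26 (edgeR, adjusted p = 0.546). The intervals leave room for differences of up to 0.27 in either comparison and are narrow beside the difference between the lines. Genes of chromosome 4, where Lin28a lies (chr4:134003330-134019196), had a median change of -0.004 in SOX2-OFF against CEpiLC. Within SOX2-ON, the summed extraembryonic endoderm markers stood at 88.9, 107.6 and 230.2 TPM in replicates 1, 2 and 3 beside the Lin28a levels above, and their part was not tested.

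Lin28b, which like its paralogue blocks the maturation of let-7, was the less abundant of the pair and was likewise lower in both TetON groups than in both wild type groups. It read 53.55, 54.85 and 53.3 TPM in EpiLC and 64.1, 61.85 and 56.4 TPM in CEpiLC. It read 39.1, 38.6 and 40.2 TPM in SOX2-OFF and 33.6, 41.5 and 35.2 TPM in SOX2-ON. Here too the TetON libraries all lay below the wild type ones, and CEpiLC lay slightly above EpiLC without overlap.

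Lin28b fell by 0.62 ± 0.07 (SE) in SOX2-OFF against CEpiLC (edgeR, adjusted p = 1.12e-05) and by 0.77 ± 0.07 in SOX2-ON against CEpiLC (edgeR, adjusted p = 1.22e-06). Lin28b lies at chr10:45376617-45486314, and the median change over all genes of chromosome 10 above the expression minimum was 0.07 and 0.04 in these comparisons. The rise with CHIR99021 was small, 0.18 ± 0.07 (edgeR, adjusted p = 0.0489), and was no longer called without EpiLC replicate 1, 2 or 3 or without CEpiLC replicate 1 or 2 (edgeR, adjusted p from 0.0889 to 0.188). The difference between SOX2-ON and SOX2-OFF was -0.15 (edgeR, adjusted p = 0.131), and without SOX2-ON replicate 2 it was -0.24 (edgeR, adjusted p = 0.0151). Lin28b made up 9.60% ± 0.52 of the summed Lin28a and Lin28b TPM in EpiLC and 10.3% ± 0.94 in CEpiLC, and in the TetON line 12.8% ± 0.56 in SOX2-OFF against 11.1% ± 0.80 in SOX2-ON (SD, n = 3).

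The levels of the LIN28 genes moved together over the 12 libraries, with Pearson r of 0.94 between their log2 CPM values. The 12 points fall into the lines, so this r describes mostly the difference between lines. The genes most like Lin28a by the same measure were Ykt6 (r = 0.986), Nmral1 (0.984) and Nup85 (0.984), of which Ykt6 and Nup85 lie on chromosome 11, which was lower in the TetON line as a whole. Those most like Lin28b were Prom1 (0.978), Adam11 (0.977) and Ldah (0.977), of which Adam11 also lies on chromosome 11.

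**Figure D3:**
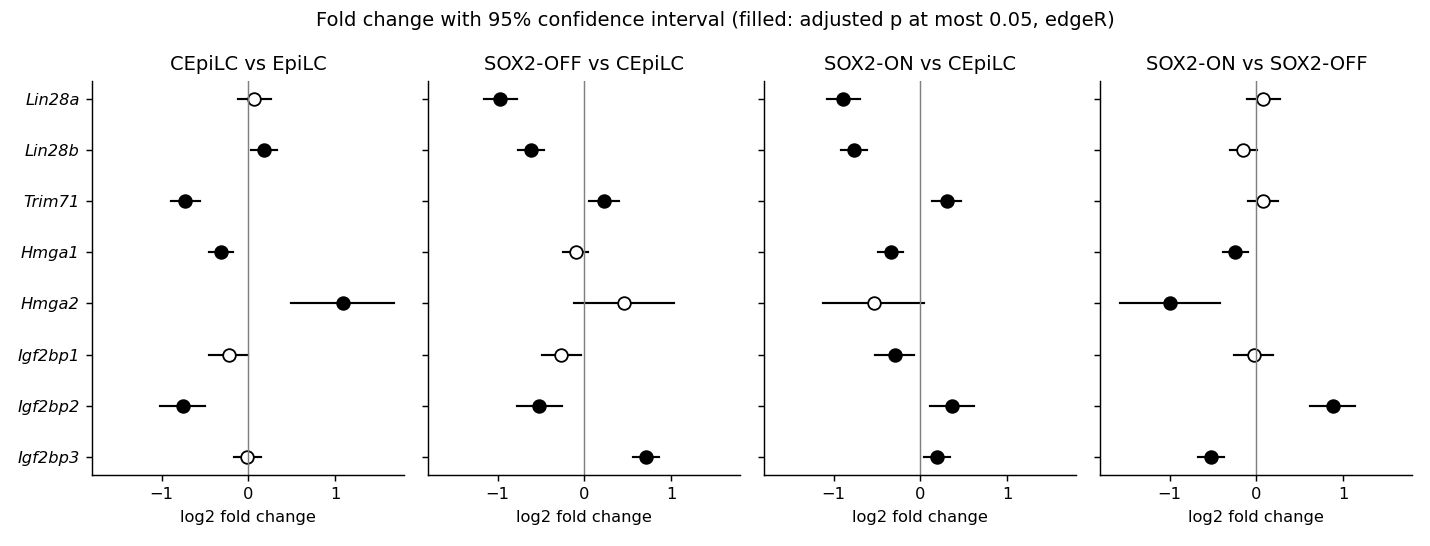
Log2 fold change (x axis) of each gene in 4 comparisons, with 95% confidence intervals from edgeR and filled points where the adjusted p was 0.05 or less. Lin28a and Lin28b lie near -1 and -0.7 in both comparisons of TetON groups with CEpiLC and near 0 between SOX2-ON and SOX2-OFF, and Igf2bp2 and Igf2bp3 lie on opposite sides of 0 there.

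Trim71, an RNA-binding ubiquitin ligase and the mammalian relative of the worm timing gene lin-41, was lower in the 3 groups given CHIR99021 than in EpiLC. It read 58.1, 55.5 and 52.9 TPM in EpiLC, and 35.2, 32.1 and 32.9 TPM in CEpiLC. In SOX2-OFF it read 43.7, 39.2 and 33.4 TPM, and in SOX2-ON 40.5, 43.3 and 43.3 TPM. The EpiLC libraries lay above all 9 others, and SOX2-OFF overlapped both CEpiLC and SOX2-ON.

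With CHIR99021 in the wild type, Trim71 fell by 0.73 ± 0.08 (SE), to 0.60-fold (edgeR, adjusted p = 1.05e-05). It was modestly higher than in CEpiLC in SOX2-ON, by 0.30 ± 0.08 (edgeR, adjusted p = 0.00498), and in SOX2-OFF, by 0.23 ± 0.08 (edgeR, adjusted p = 0.0283). The SOX2-OFF call was lost without CEpiLC replicate 2 or 3 or SOX2-OFF replicate 1 or 2 (edgeR, adjusted p from 0.0555 to 0.147). Between SOX2-ON and SOX2-OFF the difference was 0.07, with an interval from -0.09 to 0.24 (edgeR, adjusted p = 0.512). Its direction turned without SOX2-OFF replicate 3, to -0.009.

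Of 8 messengers reported to be repressed by TRIM71, 7 were tested, and 4 of them rose with CHIR99021 while none of the 7 fell by the test, beside 22.1% of all genes called higher and 20.1% called lower. Cdkn1a, the cell cycle inhibitor p21, rose by 2.28 ± 0.09 (edgeR, adjusted p = 1.84e-09), and Rbl2 and Rbl1, of the retinoblastoma family, by 0.45 and 0.31. Cdkn1a averaged 60.9 TPM in EpiLC and 294 in CEpiLC, and in the TetON line 394 in SOX2-OFF against 229 in SOX2-ON. It was 0.84 ± 0.09 lower in SOX2-ON than in SOX2-OFF (edgeR, adjusted p = 1.49e-05), the only one of the 7 called there, while Trim71 itself was not called. Against CEpiLC, 3 rose and 1 fell in SOX2-OFF, and 3 rose and 2 fell in SOX2-ON, where 48.5% and 56.5% of all genes were called in either direction. The median log2 fold change of the list was 0.31 with CHIR99021, beside 0.01 over all genes. Against CEpiLC, where Trim71 was called higher, the median was also positive, at 0.28 in SOX2-OFF and 0.22 in SOX2-ON. Over all genes it was -0.01 in each. Between SOX2-ON and SOX2-OFF the median of the list was -0.07. Whether the list follows Trim71 was not tested. The genes whose levels were most like Trim71 were Gnl3l (r = 0.964), Map6 (0.963) and Ttbk1 (0.963) over the 12 libraries.

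Hmga1 and Hmga2 encode small chromatin proteins that bind AT-rich DNA, and their levels moved in opposite directions with CHIR99021. Hmga1 was the most abundant of the 8 genes. It read 1225, 1223 and 1269 TPM in EpiLC and 1065, 1029 and 881 TPM in CEpiLC. It read 909, 902 and 934 TPM in SOX2-OFF and 841, 801 and 765 TPM in SOX2-ON. The groups descended from EpiLC to SOX2-ON, with an overlap between CEpiLC and SOX2-OFF.

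Hmga1 fell with CHIR99021 by 0.31 ± 0.07 (edgeR, adjusted p = 0.00193), and was lower in SOX2-ON than in CEpiLC by 0.34 ± 0.07 (edgeR, adjusted p = 0.000637). It was lower in SOX2-ON than in SOX2-OFF as well, at -0.24 ± 0.07 (edgeR, adjusted p = 0.0144), a call lost without SOX2-OFF replicate 3 or SOX2-ON replicate 3 (edgeR, adjusted p = 0.0563 and 0.0546). SOX2-OFF and CEpiLC differed by -0.10 (edgeR, adjusted p = 0.226). Hmga1b, a near-identical copy on chromosome 11, was given reads in CEpiLC alone, at 13.2 TPM in replicate 1 and 129.5 TPM in replicate 3, where Hmga1 was lowest. With the reads of the copies summed, Hmga1 fell by 0.25 with CHIR99021 (edgeR, adjusted p = 0.00222) and the difference between SOX2-OFF and CEpiLC became -0.17 (edgeR, adjusted p = 0.0207), so its CEpiLC value is uncertain by this split.

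Hmga2, the embryonic family member and a classic let-7 target, was lowest in EpiLC and highest in SOX2-OFF. It read 17.3, 22.2 and 36.4 TPM in EpiLC and 51.8, 43.2 and 64.1 TPM in CEpiLC. It read 66.8, 54.5 and 94.8 TPM in SOX2-OFF and 28.0, 35.8 and 48.7 TPM in SOX2-ON. CEpiLC lay above EpiLC and SOX2-ON below SOX2-OFF without overlap, and SOX2-ON overlapped both wild type groups. Replicate 3 was the highest library in all 4 groups, above its group's mean by 0.31 to 0.57 on the log2 scale, so that Hmga2 spread more within groups than 86.7% of the genes tested.

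Hmga2 rose with CHIR99021 by 1.09 ± 0.27 (SE), or 2.13-fold (edgeR, adjusted p = 0.00635), and the ratio of CEpiLC to EpiLC was 2.99, 1.94 and 1.76 for replicates 1, 2 and 3. In SOX2-ON it was 1.00 ± 0.27 lower than in SOX2-OFF on the log2 scale, or 0.50-fold (edgeR, adjusted p = 0.0136). That call was lost without SOX2-OFF replicate 3 (-0.74, edgeR, adjusted p = 0.0663) or SOX2-ON replicate 1 (-0.83, edgeR, adjusted p = 0.0614). Without replicate 3 of every group it was -0.96 (edgeR, adjusted p = 0.000676), and the CHIR99021 response was 1.26 (edgeR, adjusted p = 9.09e-05), an alternative chosen after the values were seen. Against CEpiLC, SOX2-OFF differed by 0.46 (interval -0.12 to 1.03, edgeR, adjusted p = 0.175) and SOX2-ON by -0.54 (interval -1.12 to 0.04, edgeR, adjusted p = 0.103). Without SOX2-ON replicate 3, SOX2-ON was called lower than CEpiLC, at -0.75 (edgeR, adjusted p = 0.0447). The processed copy Hmga2-ps1 held 31 counts at most in a library, and 0.38 to 2.28 TPM.

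Hmga2 made up 1.99% ± 0.72 of the summed Hmga1 and Hmga2 TPM in EpiLC and 5.15% ± 1.45 in CEpiLC, and in the TetON line 7.25% ± 1.79 in SOX2-OFF against 4.50% ± 1.40 in SOX2-ON (SD, n = 3). The genes most like Hmga1 were Zcchc3 (r = 0.967), Atpif1 (0.966) and Thbs3 (0.962), and those most like Hmga2 were St3gal1 (0.927), Lpin1 (0.914) and Hsd17b7 (0.908), over the 12 libraries.

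The IGF2BP proteins bind and stabilise messenger RNAs, Igf2 among them, and the 3 paralogues behaved differently from each other. Igf2bp1 was the most abundant of them in the wild type. It read 251, 234 and 196 TPM in EpiLC and 204, 189 and 188 TPM in CEpiLC. In SOX2-OFF it read 188, 144 and 149 TPM, and in SOX2-ON 149, 163 and 176 TPM. Both TetON groups lay below both wild type groups, SOX2-OFF only narrowly, and overlapped each other.

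Igf2bp1 was lower in SOX2-ON than in CEpiLC by 0.29 on the log2 scale (edgeR, adjusted p = 0.0285) and differed by -0.26 in SOX2-OFF (edgeR, adjusted p = 0.0505). The genes of chromosome 11 had medians of -0.54 and -0.52 in these comparisons, and once the chromosome's shift was removed Igf2bp1 stood at 0.25 in each (edgeR, adjusted p = 0.0583 and 0.0631). The call in SOX2-ON was lost without CEpiLC replicate 1, SOX2-ON replicate 1 or SOX2-ON replicate 2 (edgeR, adjusted p from 0.0673 to 0.104), and without SOX2-OFF replicate 1 the SOX2-OFF difference was called (-0.38, edgeR, adjusted p = 0.00886). With CHIR99021 the difference was -0.22 (edgeR, adjusted p = 0.0993), and -0.33 without EpiLC replicate 3 (edgeR, adjusted p = 0.0217). SOX2-ON and SOX2-OFF differed by -0.03 (interval -0.25 to 0.20, edgeR, adjusted p = 0.869), turning to 0.09 without SOX2-OFF replicate 1 and 0.02 without SOX2-ON replicate 1.

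Igf2bp2, the paralogue with the widest expression in adult tissues, fell with CHIR99021 and stood higher where SOX2 was maintained. It read 94.6, 79.5 and 77.65 TPM in EpiLC and 57.8, 46.1 and 43.9 TPM in CEpiLC. In SOX2-OFF it read 30.4, 34.0 and 38.4 TPM, and in SOX2-ON 63.3, 70.3 and 62.3 TPM. No 2 of the 4 groups overlapped, in the order EpiLC, SOX2-ON, CEpiLC and SOX2-OFF from high to low.

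Igf2bp2 fell by 0.76 ± 0.12 (SE) with CHIR99021, to 0.59-fold (edgeR, adjusted p = 0.00022). It was 0.88 ± 0.12 higher in SOX2-ON than in SOX2-OFF, or 1.84-fold (edgeR, adjusted p = 0.000135), a call kept without each replicate in turn. Against CEpiLC it was lower in SOX2-OFF by 0.52 ± 0.12 (edgeR, adjusted p = 0.00311) and higher in SOX2-ON by 0.36 ± 0.12 (edgeR, adjusted p = 0.0186). The latter was lost without CEpiLC replicate 2 or 3 or SOX2-ON replicate 2 (edgeR, adjusted p from 0.0651 to 0.0708). Its chromosome 16 had medians of 0.03 and -0.01 in these comparisons.

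Igf2bp3, an oncofetal paralogue, was steady between EpiLC and CEpiLC and highest in SOX2-OFF. It read 121, 114.5 and 113 TPM in EpiLC and 106, 121 and 118 TPM in CEpiLC. In SOX2-OFF it read 184, 188 and 186 TPM, and in SOX2-ON 126, 150.2 and 128 TPM. SOX2-OFF lay above all 9 other libraries and SOX2-ON above the wild type, while EpiLC and CEpiLC overlapped.

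Within the TetON line, Igf2bp3 was lower in SOX2-ON than in SOX2-OFF by 0.52 ± 0.07 (SE), at 0.70-fold (edgeR, adjusted p = 0.000118), where chromosome 6 as a whole had a median of -0.01. Against CEpiLC it was higher in SOX2-OFF by 0.71 ± 0.07 (edgeR, adjusted p = 3.74e-06) and in SOX2-ON by 0.19 ± 0.07 (edgeR, adjusted p = 0.0345), and the chromosome medians were 0.57 in each. With the shift removed the difference became 0.14 in SOX2-OFF (edgeR, adjusted p = 0.105) and turned to -0.38 in SOX2-ON (edgeR, adjusted p = 0.000393). The SOX2-ON call before removal was lost without CEpiLC replicate 1 or SOX2-ON replicate 2 (0.15 and 0.11, edgeR, adjusted p = 0.119 and 0.169). With CHIR99021 in the wild type it differed by -0.01 (interval -0.16 to 0.14, edgeR, adjusted p = 0.928).

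**Figure D4:**
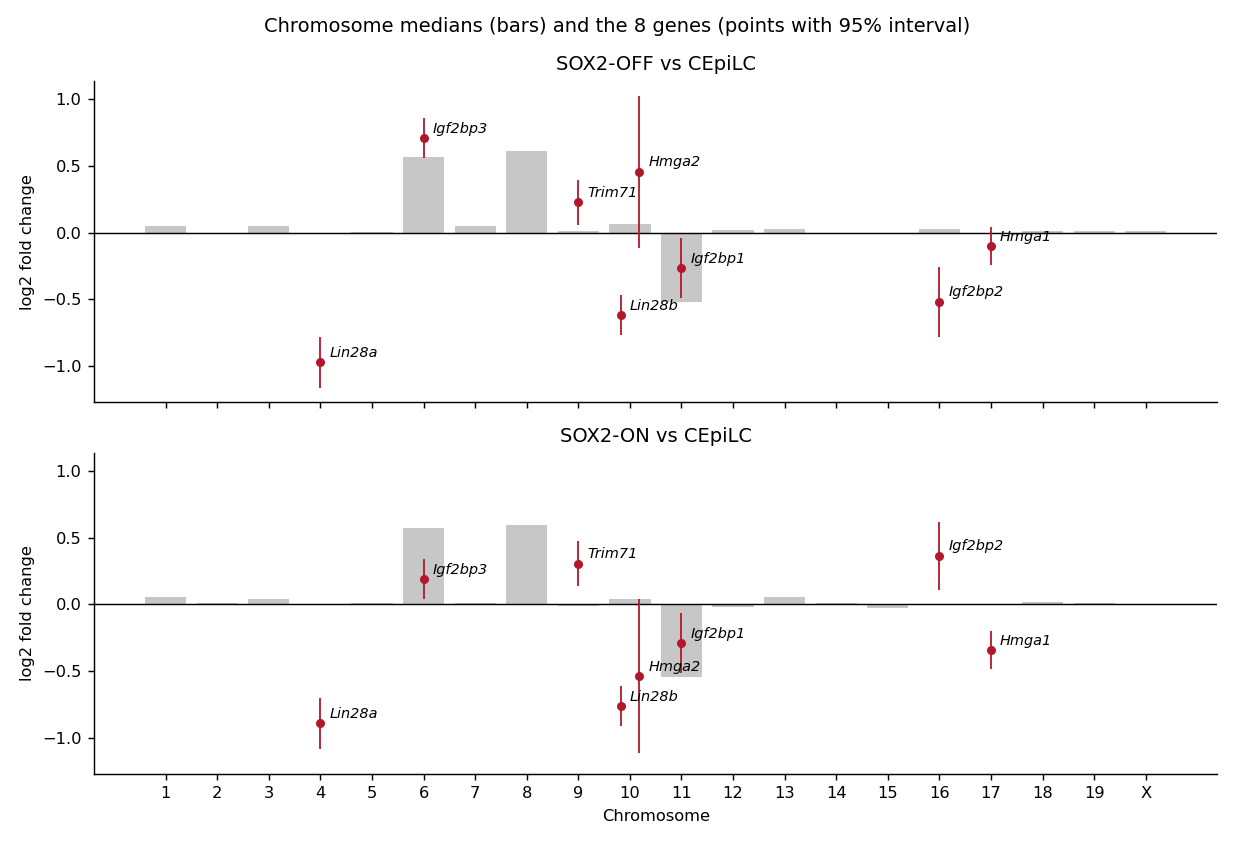
Median log2 fold change of each chromosome's genes (grey bars, y axis) against CEpiLC in SOX2-OFF (top) and SOX2-ON (bottom), with the 8 genes as points and 95% intervals on their chromosome (x axis). Igf2bp3 sits just above its chromosome's bar in SOX2-OFF and below it in SOX2-ON, Igf2bp1 sits inside its bar in both, and Lin28a and Lin28b sit far below bars near 0.

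The summed level of the 3 paralogues was 428 ± 39.8 TPM in EpiLC and 358 ± 9.56 in CEpiLC, and in the TetON line 381 ± 18.9 in SOX2-OFF against 363 ± 22.9 in SOX2-ON (SD, n = 3). Their make-up was not the same. Igf2bp2 took 19.6% ± 0.92 of the sum in EpiLC and 13.7% ± 1.70 in CEpiLC, and in the TetON line 9.04% ± 1.37 in SOX2-OFF against 18.02% ± 0.88 in SOX2-ON. Igf2bp3 took 27.3% ± 1.74, 32.2% ± 2.85, 49.0% ± 2.98 and 37.1% ± 2.16 in the same order, and Igf2bp1 53.1% ± 2.09, 54.1% ± 1.21, 41.9% ± 4.16 and 44.9% ± 2.91. The shares of Igf2bp1 and Igf2bp3 in the TetON line hold the chromosome shifts, which SOX2-OFF and SOX2-ON share.

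**Figure D5:**
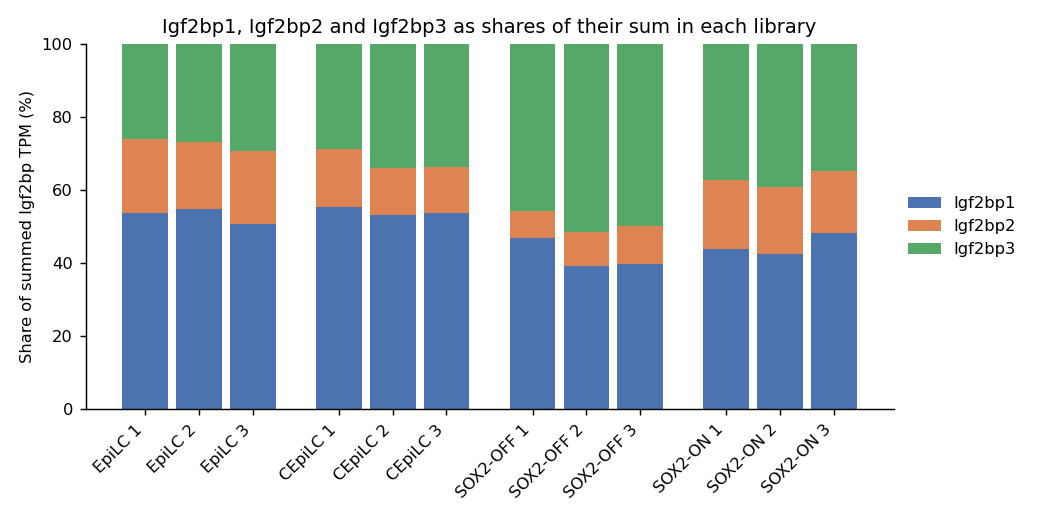
Igf2bp1, Igf2bp2 and Igf2bp3 as percent of their summed TPM (y axis) in each of the 12 libraries (x axis, group and replicate number). Igf2bp2 takes under 10.5% of each SOX2-OFF library and over 17% of each SOX2-ON and EpiLC library, and Igf2bp3 takes over 45% of each SOX2-OFF library.

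Over the 12 libraries Igf2bp2 ran against Igf2bp3 (Pearson r of -0.72 between log2 CPM values) and against Hmga2 (-0.85), which describes the 4 groups they share. The genes most like Igf2bp1 were Mtor (r = 0.931), Trio (0.923) and Coro2b (0.923), and those most like Igf2bp2 were Gpc4 (0.964) and Lsm14b (0.952). Those most like Igf2bp3 were Zfp948 (0.944), Aasdhppt (0.941) and Tmem209 (0.939). Of these, Tmem209 lies on chromosome 6, which was higher in the TetON line as a whole.

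Of 8 genes of IGF2 signalling and known IGF2BP targets, all tested, 2 rose and 2 fell with CHIR99021, where 42.2% of all genes were called. Cd44, a hyaluronan receptor, rose by 0.97 ± 0.12 (edgeR, adjusted p = 4.35e-05) and Igf2r, the receptor that clears IGF2, by 0.66 ± 0.09. Against CEpiLC, 3 rose and 5 fell in SOX2-OFF (48.5% of all genes called), and 1 rose and 3 fell in SOX2-ON (56.5% of all genes called). The largest change was in H19, a noncoding RNA of the imprinted Igf2 locus, which ran from 1.09 to 5.05 TPM in CEpiLC, 33.6 to 131 TPM in SOX2-OFF and 123 to 184 TPM in SOX2-ON. Its log2 fold change was 5.39 ± 0.55 in SOX2-OFF (edgeR, adjusted p = 5.17e-06) and 6.15 ± 0.55 in SOX2-ON (edgeR, adjusted p = 1.15e-06). Igf2 itself was lower in SOX2-OFF than in CEpiLC, by 1.26 ± 0.38 (edgeR, adjusted p = 0.014), and was not called in SOX2-ON (-0.54). Between SOX2-ON and SOX2-OFF 1 gene of the list rose, the IGF1 receptor gene Igf1r (0.39), and 2 fell, Ptgs2 (-1.56) and Actb (-0.25).

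The machinery that makes and removes let-7 was tested as a list of 25 genes, all expressed. With CHIR99021, 5 rose and 8 fell, where 42.2% of all genes were called. Dgcr8, which pairs with DROSHA to cut primary microRNAs, fell by 0.62 ± 0.06 (edgeR, adjusted p = 5.89e-06), and the Argonaute genes Ago1 and Ago4 rose by 0.61 and 0.68. Against CEpiLC, 5 rose and 6 fell in SOX2-OFF and 6 rose and 7 fell in SOX2-ON, near the 48.5% and 56.5% called over all genes. Msi1 and Msi2, RNA-binding proteins of progenitor cells, were lower in both, Msi2 by 1.47 ± 0.09 in SOX2-OFF and 0.85 ± 0.09 in SOX2-ON, although Msi2 lies on the shifted chromosome 11. Prkra, a partner of DICER1, was lower in both (-0.65 and -0.86), and Papd4, a poly(A) polymerase, higher (0.67 and 0.82). Between SOX2-ON and SOX2-OFF only Msi2 (0.62) and Drosha (0.23) were called, both higher. The median of the list stayed between -0.03 and 0.03 in these 4 comparisons.

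Among 32 other reported let-7 targets, all tested, 23 held the seed match CTACCTC in their longest 3′ UTR. Other forms of let-7 site were not counted for this list, so 0 matches here means no CTACCTC alone. With CHIR99021, 13 rose and 12 fell, and against CEpiLC 12 rose and 13 fell in SOX2-OFF and 11 rose and 14 fell in SOX2-ON. Between SOX2-ON and SOX2-OFF 9 rose and 7 fell. Over all genes 42.2%, 48.5%, 56.5% and 28.8% were called in these 4 comparisons, so a larger share of this list was called in each, in both directions, a difference that was not tested. Their median log2 fold changes were -0.07, -0.03, -0.06 and 0.03. The genes with large changes differed from one comparison to the next. Ccnd2, a D-type cyclin with 0 seed matches, rose with CHIR99021 by 3.90 ± 0.07 (edgeR, adjusted p = 1.61e-12). It ran from 8.50 to 9.77 TPM in EpiLC and from 131 to 139.8 TPM in CEpiLC. Nr6a1, a nuclear receptor gene with 8 seed matches, fell by 1.28 ± 0.19 in SOX2-OFF against CEpiLC (edgeR, adjusted p = 9.28e-05). Arid3a, a DNA-binding factor with 2 seed matches, was 1.18 ± 0.08 lower in SOX2-ON than in SOX2-OFF (edgeR, adjusted p = 3.11e-07). Mycn (0 matches) and Sall4 (1 match), of pluripotent and progenitor cells, were higher there, by 0.90 and 0.82.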

How the data were processed

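RNA of 12 cultures was measured in 4 groups of 3, grouped by the labels. Per the submitters' processing notes and the study's methods, reads (polyadenylated, strand-specific, single-end) were trimmed with cutadapt 1.16, aligned with STAR 2.5.2a to mm10 and quantified on RefSeq genes with RSEM 1.3.0. The deposited table holds expected counts, with replicates not pooled, and the authors' TPM values, used here only for levels.

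Expected counts were rounded and fitted with edgeR 4.0.16 (quasi-likelihood, R 4.3.3) in 1 model of 12 libraries with TMM scaling and filterByExpr, leaving 14196 of 24736 genes, with Benjamini-Hochberg adjustment over them and a threshold of 0.05. In a library 2.59 to 3.43% of values were not whole, and Rn45s took 0.149 to 3.17% of counts. Intervals are 95%. Labels call the replicates biological, without naming separate derivations, so p-values measure the spread between these samples. Replicates differed beyond sampling noise (chi-square per degree of freedom 7.35 to 41.8). The test was checked on simulated counts.

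Chromosome shifts are medians over genes of at least 4 log2 CPM, and removing them used an offset per chromosome and library. Seed matches were searched in GENCODE M21 transcripts. Same-numbered EpiLC and CEpiLC libraries deviated together (r of 0.120, 0.132 and 0.103 across genes), so numbers were taken to pair those samples, on the values only. At least 1 r under 0.1 was found in each of the other 5 comparisons. Single values there were larger, up to 0.179 in SOX2-OFF against CEpiLC and 0.201 in SOX2-ON against CEpiLC. Libraries of unlike number were not compared, so these values do not settle which samples are paired.

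Alternatives were RLE scaling, library size alone, no filter, DESeq2 1.42.0, limma-voom (limma 3.58.1), 6 libraries, a replicate block, Hmga1 copies summed, the chromosome shift removed, each replicate left out, and replicate 3 left out of every group. The genes and lists were chosen with earlier results of these data known. Named were the 8 genes, their copies, Sox2 and markers as checks, up to 4 called genes with the largest change per list and comparison, and the 3 genes of highest Pearson r per gene (mean of at least 2 log2 CPM). Some genes that this rule names are not reported here.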

Additional observations from a re-analysis of the deposited data

How the results depend on the processing

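Of 726 values of the 8 genes under the alternatives, 653 kept their direction and side of the threshold, 40 lost a call, 19 gained one and 14 changed sign. The calls of Lin28a and Lin28b against CEpiLC and EpiLC in both TetON groups, of Trim71 and Hmga2 with CHIR99021, and of Igf2bp2 and Igf2bp3 in SOX2-ON against SOX2-OFF were kept under every alternative run. With the chromosome shift removed, Igf2bp1 turned to 0.25 in both TetON groups against CEpiLC and, against EpiLC, to 0.015 (SOX2-OFF) and 0.010 (SOX2-ON), and Igf2bp3 in SOX2-ON turned to -0.38 against CEpiLC and -0.41 against EpiLC. Values near 0 also turned. For CEpiLC against EpiLC, Lin28a ran from -0.047 (without CEpiLC replicate 1) to 0.14 over left-out replicates and Igf2bp3 from -0.037 to 0.039, positive without EpiLC replicate 1 (0.023) or CEpiLC replicate 1, and 0.0070 with library size alone. For SOX2-ON against SOX2-OFF, Igf2bp1 ran from -0.10 to 0.088, positive without SOX2-OFF replicate 1 or SOX2-ON replicate 1 (0.019), and Trim71 from -0.0089 (without SOX2-OFF replicate 3) to 0.16, with -0.016 without replicate 3 of every group. Left-out replicates gave 4 to 8 of the genes called for SOX2-ON against CEpiLC and 2 to 5 for SOX2-ON against SOX2-OFF. Against EpiLC in SOX2-ON, calls were lost for Igf2bp2 without EpiLC replicate 1 (-0.29) and for Igf2bp3 without EpiLC replicate 2 or 3 or SOX2-ON replicate 2 (0.10 to 0.17), and gained for Hmga2 without EpiLC replicate 3 (0.88). Small changes depended on the tool or scaling too. The call of Lin28b with CHIR99021 was lost with RLE scaling, no filter or DESeq2 (0.17 in each), that of Trim71 in SOX2-OFF against CEpiLC with library size alone (0.18) or the 6 libraries compared (0.23), and that of Igf2bp3 in SOX2-ON against CEpiLC with library size alone (0.16) or the 6 libraries (0.19). Igf2bp1 in SOX2-OFF against CEpiLC was called with DESeq2 (-0.26), limma-voom (-0.27), library size alone (-0.31) or the 6 libraries (-0.27). With the replicate number as a block, 5 genes were again called for CEpiLC against EpiLC, where the numbers were taken to pair the samples. In the other comparisons the numbers were not taken to pair the samples. There the block called Hmga2 in SOX2-OFF against CEpiLC (0.43), SOX2-ON against CEpiLC (-0.56) and SOX2-ON against EpiLC (0.56). It also called Igf2bp1 in SOX2-OFF against CEpiLC (-0.27). Beyond what each alternative's construction shows, the cause was not tested. Each gene held at least 686 counts in every library.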
